A study of Mus musculus with 2 samples.

Results

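The genes described here encode proteins of the large (60S) subunit of the cytosolic ribosome, the particle that holds the peptidyl transferase centre and the exit tunnel of the growing chain. They are 45 mouse Rpl and Rplp genes chosen by name, with their pseudogenes left out. All 45 were found among the 43346 genes measured. Brain RNA came from 1 male C57BL/6J mouse of 10 weeks, an inbred laboratory strain, with no treatment or engineered allele named. Poly(A) RNA of this brain was sequenced in 2 libraries, labelled technical replicate 2 and technical replicate 1 of biological replicate 1. Replicate 2 was made in a later year than the publication named in the labels. The only comparison is therefore replicate 2 against replicate 1. Each side is 1 library of the same mouse, so no difference below has a replicate check, and library and time of preparation cannot be told apart. In bulk tissue, fewer cells of a type and less RNA per cell cannot be told apart either.

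Ribosomal protein mRNAs are among the most abundant messages of a cell, and equal numbers of most of these proteins go into each ribosome. Most of the mRNAs are short, and in mammals they begin with an oligopyrimidine tract (a TOP sequence) through which mTOR signalling controls their translation. Neurons translate in cell bodies, dendrites and axons, and mRNAs of ribosomal proteins are known in all of these places. The large subunit has landmarks by which its proteins are ordered below. These are the stalk that recruits translation factors, the 5S RNA particle, the peptidyl transferase region, the exit tunnel and the face toward the small subunit.

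The libraries held 17828479 counts in replicate 2 and 18302485 in replicate 1. TPM is a transcript level scaled for length and depth. In replicate 2, 14780 genes had at least 1 TPM, against 11608 in replicate 1. Mitochondrially encoded genes held 17.0% of all TPM in replicate 2 and 37.8% in replicate 1. The 10 brain cell markers summed to 6449 TPM in replicate 2 and 5805 TPM in replicate 1, and none was at 0. They differed in both directions: Snap25, a synaptic vesicle fusion protein, stood at 2764 TPM in replicate 2 and 3457 TPM in replicate 1. Rbfox3, a nuclear protein of neurons, stood at 130.5 TPM in replicate 2 and 14.7 TPM in replicate 1. Cldn5, a tight junction protein of brain endothelium, stood at 48.6 TPM in replicate 2 and 0.40 TPM in replicate 1. The 6 markers of other tissues (liver, muscle, skin and testis) stood between 0.09 and 9.55 TPM in replicate 2 and between 0 and 0.11 in replicate 1. The part of these differences in the results below was not tested.

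Large subunit messages were more abundant in replicate 2 for nearly every gene, and by very unequal amounts. TPM was higher in replicate 2 for 44 of the 45 genes. The 45 together held 29340 TPM in replicate 2 and 5188 TPM in replicate 1, which is 2.93% of all TPM in replicate 2 and 0.519% in replicate 1. Without mitochondrially encoded genes in the total, the shares were 3.54% in replicate 2 and 0.835% in replicate 1. By expected counts the genes held 0.941% of replicate 2 (167709 counts) and 0.24% of replicate 1 (43835 counts). The median difference in log2(TPM + 1) was 3.05 over the 45 genes, beside 0.88 over the 14229 genes that averaged 1 TPM or more, and 40 of the 45 lay above that second median.

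Gene by gene, the counts went into a two-sided exact binomial test. Library sizes came from TMM, a trimmed mean of gene ratios. A gene was called at a Benjamini-Hochberg adjusted p under 0.05 over all genes tested and a difference of at least 2-fold. All 45 genes entered the test. Of them 30 were called higher in replicate 2, which is 66.7% of the genes beside a background of 34.5% of the 16320 genes tested. Rpl39 was the 1 gene called lower, beside a background of 24.0%. The other 14 were not called: each passed the bound on adjusted p, and each was under 2-fold. Sizes set by the library totals instead shifted every log2 count ratio up by 0.61 relative to TMM, the median of all genes included, from 0.09 to 0.70. With totals, 38 of the 45 were called higher beside a background of 43.6%, and 0 were called lower beside 7.9%. The higher share of all calls was 59.0% with TMM and 84.7% with totals.

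The genes were far more alike in replicate 2 than in replicate 1. In replicate 2 the 45 levels ran from 235 TPM (Rpl22) to 2599 TPM (Rplp1), an 11-fold range with an interquartile range of 387 to 798 TPM. In replicate 1 they ran from 0.30 TPM (Rpl18) to 458 TPM (Rpl30), a 1530-fold range with an interquartile range of 13.3 to 168 TPM. The SD of log2(TPM + 1) over the genes was 0.75 in replicate 2 and 2.31 in replicate 1. The order of the genes was also different: the rank correlation of their levels between the libraries was 0.17 (45 genes, which share both libraries). Among the 200 genes of highest TPM were 21 members in replicate 2 and 7 in replicate 1. The TPM ratio was at least 10 for 21 genes, at least 100 for 6 and under 2 for 5.

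**Figure D1:**
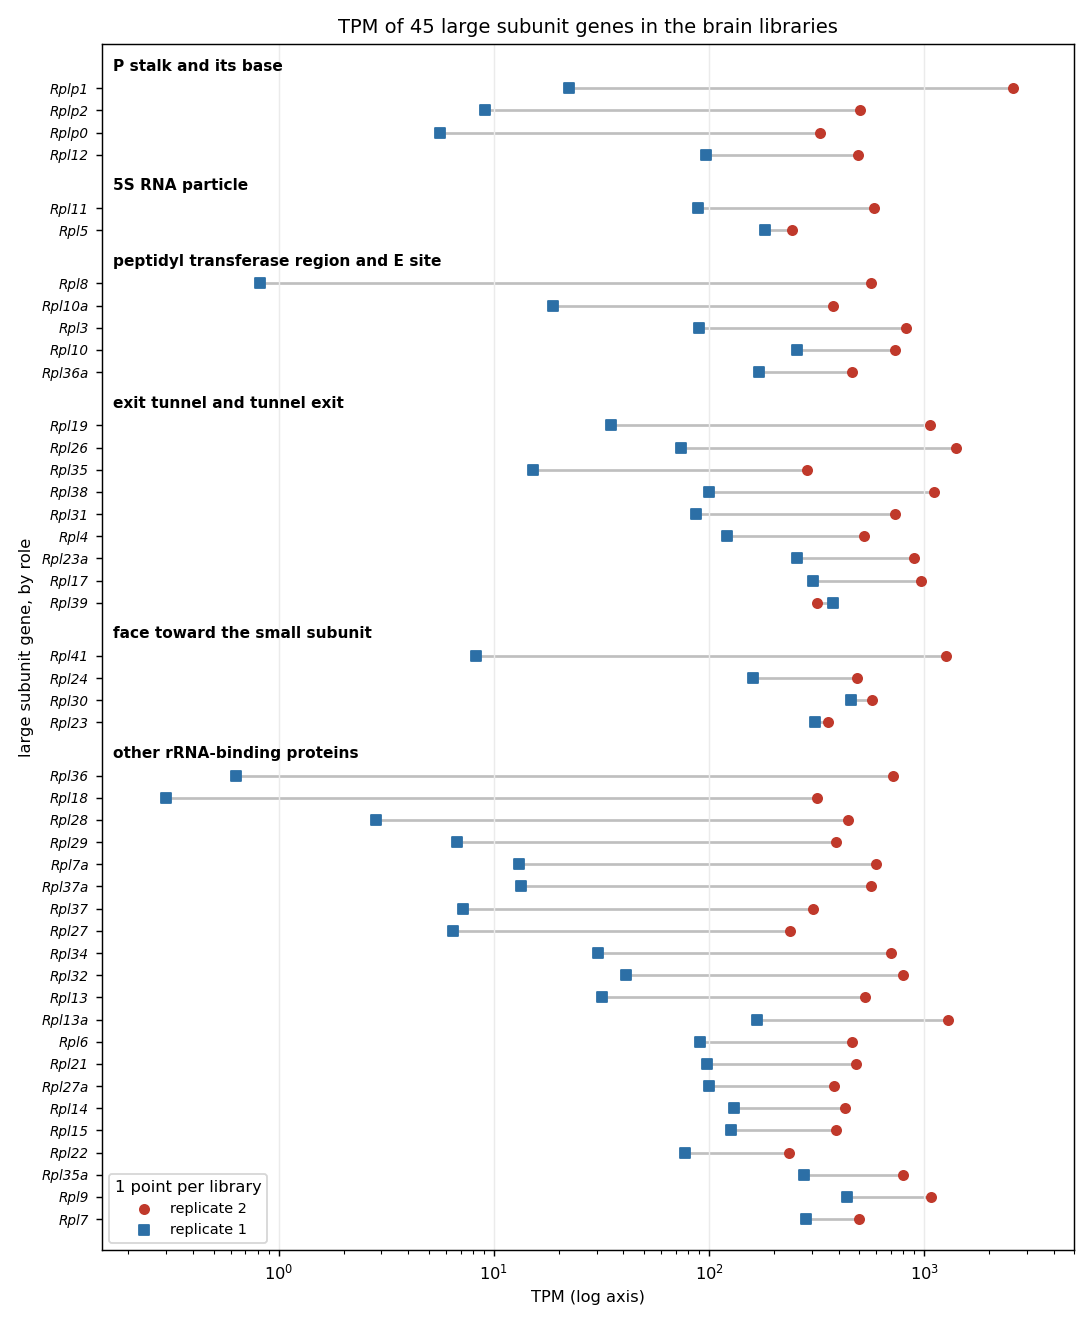
TPM of each of the 45 large subunit genes in replicate 2 (circles) and replicate 1 (squares) on a log axis, grouped by the protein's place in the subunit and ordered within a group by the difference. Replicate 2 points lie in a band between 235 and 2599 TPM, and replicate 1 points spread from 0.30 to 458 TPM; Rpl39 is the gene with its replicate 2 point on the left.

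Coding sequences of genes near the ends of the range of differences are printed to show their base composition, with G and C in capitals. They run 5′ to 3′ from the start codon, from GENCODE M21 transcripts on GRCm38. Rpl36 (chromosome 17, 56613416 to 56614243, plus strand), Rpl8 (chromosome 15, 76904078 to 76906314, plus strand) and Rpl18 (chromosome 7, 45715457 to 45720836, plus strand) had the 3 largest differences in log2(TPM + 1), and Rpl41 (chromosome 10, 128548114 to 128549305, minus strand) the fourth. With posterior mean TPM Rpl18 stood at 6.29, below Rpl41 at 6.84. Rpl39 (chromosome X, 37082520 to 37085402, minus strand), Rpl30 (chromosome 15, 34440505 to 34443640, minus strand) and Rpl5 (chromosome 5, 107900502 to 107909005, plus strand) were among the 4 smallest. Rpl41 and Rpl39 are whole, with 25 and 51 codons before the stop, and the others are the first 120 bases.
Rpl36: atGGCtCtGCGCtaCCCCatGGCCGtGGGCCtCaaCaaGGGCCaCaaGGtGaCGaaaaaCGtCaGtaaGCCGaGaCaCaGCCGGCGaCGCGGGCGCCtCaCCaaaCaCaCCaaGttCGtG
Rpl8: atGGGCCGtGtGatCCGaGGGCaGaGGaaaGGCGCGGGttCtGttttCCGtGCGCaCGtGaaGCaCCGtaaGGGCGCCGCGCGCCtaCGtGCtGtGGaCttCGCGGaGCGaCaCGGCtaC
Rpl18: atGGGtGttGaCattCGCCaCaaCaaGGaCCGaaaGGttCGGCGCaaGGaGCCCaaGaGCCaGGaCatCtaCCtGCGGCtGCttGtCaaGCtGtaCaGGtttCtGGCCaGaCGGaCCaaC
Rpl41: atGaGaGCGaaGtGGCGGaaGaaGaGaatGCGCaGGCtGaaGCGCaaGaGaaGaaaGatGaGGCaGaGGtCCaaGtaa
Rpl39: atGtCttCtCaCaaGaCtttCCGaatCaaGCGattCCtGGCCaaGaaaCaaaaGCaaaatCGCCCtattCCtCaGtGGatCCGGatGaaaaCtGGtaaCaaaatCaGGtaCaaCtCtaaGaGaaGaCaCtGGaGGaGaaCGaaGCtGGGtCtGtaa
Rpl30: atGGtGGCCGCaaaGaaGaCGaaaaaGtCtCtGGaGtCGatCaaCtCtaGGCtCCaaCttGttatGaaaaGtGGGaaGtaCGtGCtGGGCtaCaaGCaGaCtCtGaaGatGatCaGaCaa
Rpl5: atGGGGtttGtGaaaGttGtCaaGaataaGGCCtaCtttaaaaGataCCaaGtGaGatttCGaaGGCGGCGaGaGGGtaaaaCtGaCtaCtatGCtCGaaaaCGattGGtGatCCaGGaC
G and C made up 61.7% of the printed Rpl36 stretch, 65.8% of Rpl8, 56.7% of Rpl18 and 51.3% of Rpl41, against 44.2% of Rpl39, 46.7% of Rpl30 and 43.3% of Rpl5. Over the whole coding sequence the values were 61.3% for Rpl36, 58.7% for Rpl8 and 58.9% for Rpl18, against 44.5% for Rpl30 and 45.9% for Rpl5. Rpl41 lay below the members' median of 52.3%. Rpl23, also among the 4 smallest differences and not printed, had 48.9%.

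The P stalk genes were all called higher in replicate 2, 4 of 4, beside 34.5% of all genes tested. Their median log2(TPM + 1) difference was 5.64. Their GC ran from 53.3% to 57.3%. Of other genes, 49.5% at 50 to 55% GC and 91.7% at 55 to 60% GC were called higher. Rplp1, 1 of the acidic proteins that reach out to bind elongation factors, had 2599 TPM in replicate 2 and 22.3 TPM in replicate 1 (1311 ± 1822, SD, n = 2), a TPM ratio of 117. It was the most abundant member in replicate 2 and stood at rank 31 of 45 in replicate 1. Its partner Rplp2 had 506 TPM in replicate 2 and 9.12 TPM in replicate 1. Rplp0, the protein that anchors the acidic pairs to the ribosome, had 329 TPM in replicate 2 and 5.63 TPM in replicate 1. Rplp1 and Rplp2 form a heterodimer, and Rplp1 stood above Rplp2 in both libraries. Rpl12, at the base of the stalk, had 491 TPM in replicate 2 and 97.1 TPM in replicate 1, the smallest difference of the 4.

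The partners of the 5S RNA moved unequally. Rpl5 and Rpl11 join the 5S rRNA before it enters the subunit, and when free they bind the p53 regulator Mdm2. Rpl11 had 583 TPM in replicate 2 and 89.0 TPM in replicate 1 and was called higher. Rpl5 had 242 TPM in replicate 2 and 182 TPM in replicate 1, and its counts were 2981 in replicate 2 and 3911 in replicate 1. The direction for Rpl5 therefore depends on the scale: its log2(TPM + 1) difference was 0.41 and its log2 count ratio with TMM was -0.96, under 2-fold. Rpl5 had the highest count of the 45 in replicate 1, on a leading transcript of 2045 bases, the longest among them.

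Around the peptidyl transferase centre and the tRNA exit site, 3 of 5 genes were called higher, beside 34.5% of all genes tested. Rpl8, which lies near the catalytic RNA, had 564 TPM (4127 counts) in replicate 2 and 0.82 TPM (8 counts) in replicate 1. Its TPM ratio was 688, with an exact 95% interval of 349 to 1594 for counting error only. Rpl3, a large protein that also reaches toward the centre, had 827 TPM in replicate 2 and 89.6 TPM in replicate 1, which placed it first of the 5 in replicate 2. Rpl10a, the protein of the L1 stalk, had 377 TPM in replicate 2 and 18.9 TPM in replicate 1. Rpl10, which joins late in the cytoplasm, was not called, with 729 TPM in replicate 2 and 255 TPM in replicate 1. Rpl36a, at the exit site, was not called either, with 462 TPM in replicate 2 and 171 TPM in replicate 1. Both Rpl10 and Rpl36a are on the X chromosome and both were called higher with library totals.

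Of the 9 genes for the exit tunnel and its opening, 6 were called higher, Rpl39 was called lower and 2 were not called. Among all genes tested, 34.5% were called higher and 24.0% lower. Rpl26 was the most abundant, at 1411 TPM in replicate 2 and 73.8 TPM in replicate 1 (742 ± 945, SD, n = 2). Rpl19, with a long helix toward the small subunit, had the largest difference of the 9, with 1061 TPM in replicate 2 and 34.9 TPM in replicate 1. Rpl38, Rpl31 and Rpl4, also called higher, stood at 1108, 730.5 and 527 TPM in replicate 2, against 100.4, 87.1 and 121 TPM in replicate 1. Rpl35 was the least abundant, with 285 TPM in replicate 2 and 15.2 TPM in replicate 1. The genes with the smallest differences of the 9 were 2 proteins of the tunnel wall and a protein of its rim. Rpl39, a protein of the tunnel wall, had 317 TPM in replicate 2 and 379 TPM in replicate 1. Its counts were 1458 in replicate 2 and 2335 in replicate 1, a log2 count ratio with TMM of -1.25 (two-sided exact binomial test, adjusted p = 1.5e-153). With library totals Rpl39 stayed lower in replicate 2 but was under 2-fold. Rpl17, another wall protein, had 965 TPM in replicate 2 and 306 TPM in replicate 1 (635 ± 466, SD, n = 2). Rpl23a, where the signal recognition particle docks, had 901 TPM in replicate 2 and 256 TPM in replicate 1. Neither Rpl17 nor Rpl23a was called with TMM, and both were called higher with totals.

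The 4 genes facing the small subunit held 2 of the smallest and 1 of the largest differences. Rpl30 had 575 TPM in replicate 2 and 458 TPM in replicate 1 and was the most abundant member in replicate 1. Rpl23 had 356 TPM in replicate 2 and 309.5 TPM in replicate 1. Neither was called, and with TMM their log2 count ratios were -0.62 for Rpl30 and -0.30 for Rpl23, opposite in direction to TPM. With library totals the ratio was -0.01 for Rpl30 and 0.31 for Rpl23, so for Rpl23 the direction depended on how library sizes were set. Rpl24, which joins late and forms a bridge between the subunits, had 487 TPM in replicate 2 and 159.8 TPM in replicate 1 and was called higher. Rpl41, the smallest ribosomal protein, had 1258 TPM in replicate 2 and 8.24 TPM in replicate 1 (633 ± 883, SD, n = 2), a ratio of 153 with an exact 95% interval of 115 to 208. Rpl41 ranked 4 of 45 in replicate 2 and 37 in replicate 1.

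Among the 21 remaining rRNA-binding proteins, 14 were called higher and 7 were not called, beside 34.5% of all genes tested called higher. Rpl36 had 714 TPM (1691 counts) in replicate 2 and 0.63 TPM (2 counts) in replicate 1. Rpl18 had 316 TPM (1707 counts) in replicate 2 and 0.30 TPM (4 counts) in replicate 1. With so few counts in replicate 1 the ratios are loosely bounded, at 1133 (exact 95% interval 313 to 9366) for Rpl36 and 1055 (411 to 3876) for Rpl18. With posterior mean TPM the log2(TPM + 1) difference of Rpl18 was 6.29, against 7.93 with TPM. The deposited replicate 1 bounds for Rpl18, from 0.955 to 5.22 TPM, lie above its TPM. Such a miss was not particular to Rpl18: the bounds missed the TPM of 43 members in replicate 2 and 13 in replicate 1. Rpl28 followed with 443 TPM in replicate 2 and 2.82 TPM in replicate 1. Rpl13a, known in human cells as part of a translational silencing complex, was the most abundant called gene of the 21, with 1291 TPM in replicate 2 and 168 TPM in replicate 1 (729.6 ± 795, SD, n = 2). Rpl27 had the lowest mean, with 237 TPM in replicate 2 and 6.48 TPM in replicate 1. The other 9 called genes of the 21 (Rpl6, Rpl7a, Rpl13, Rpl21, Rpl29, Rpl32, Rpl34, Rpl37 and Rpl37a) had log2(TPM + 1) differences between 2.29 and 5.66.

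The 7 not called were higher on TPM by 1.78-fold to 3.84-fold. Rpl9 was the most abundant of them, at 1082 TPM in replicate 2 and 436 TPM in replicate 1 (759 ± 457, SD, n = 2). Rpl7 had 499 TPM in replicate 2 and 281 TPM in replicate 1. Rpl35a had 801 TPM in replicate 2 and 277 TPM in replicate 1. These 3 stood among the 7 highest members in replicate 1. Rpl14 had 427 TPM in replicate 2 and 130.2 TPM in replicate 1, and Rpl27a had 383 TPM in replicate 2 and 99.8 TPM in replicate 1. Rpl22 had 235 TPM in replicate 2, the lowest of the 45 there, and 76.9 TPM in replicate 1. Rpl15 had 391 TPM in replicate 2 and 126 TPM in replicate 1 while its counts were close, 3840 in replicate 2 and 3158 in replicate 1, a case that the transcripts below show in detail.

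Base composition ordered the genes by how far the libraries differed. Across the 45, the rank correlation of the log2(TPM + 1) difference was 0.72 with the GC content of the transcripts, 0.82 with that of the coding sequence, 0.69 with that of the third codon position and -0.23 with transcript length (45 genes sharing the same libraries). Over 14188 genes of all kinds the correlation with GC was 0.89, so the relation is not particular to ribosomal proteins. Within a library, TPM and GC of the 45 correlated at 0.11 in replicate 2 and at -0.66 in replicate 1. All 10 members with a GC of at least 55% were called higher, near the share of other genes there, 91.7% at 55 to 60% GC and 94.4% at 60 to 65%. Of the 14 members at 45 to 50% GC, 3 were called higher, beside 3.25% of the other genes there. At 50 to 55% GC, 17 of 20 members were called higher, beside 49.5% of the other genes there.

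Within a band of GC the members differed more between the libraries than other genes did. At 50 to 55% GC the 20 members had a median log2(TPM + 1) difference of 3.12, beside 1.60 for 3657 other genes, and 16 of the 20 lay above the other genes' upper quartile of 2.24. At 55 to 60% GC the 9 members had a median of 5.66, beside 3.02 for 2749 other genes, and 9 of 9 lay above the upper quartile of 3.90. At 45 to 50% the 14 members had a median of 1.61, beside 0.40 for 3751 other genes. Short genes lay nearer to the members. Other genes under 1000 bases had medians of 0.67, 2.05 and 3.62 in the bands from low to high GC, and the members' leading transcripts have a median length of 751 bases. The upper quartiles of these short genes were 1.37, 3.14 and 4.90. Above them lay 10 of 14, 10 of 20 and 6 of 9 members. Rpl37 and Rpl37a, which both bind zinc, stood well above the other genes of their band. Rpl37 had 305 TPM in replicate 2 and 7.21 TPM in replicate 1 at 48.3% GC, and Rpl37a had 567 TPM in replicate 2 and 13.4 TPM in replicate 1 at 47.1% GC. Their coding sequences were richer in GC, at 54.4% for Rpl37 and 54.1% for Rpl37a.

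**Figure D2:**
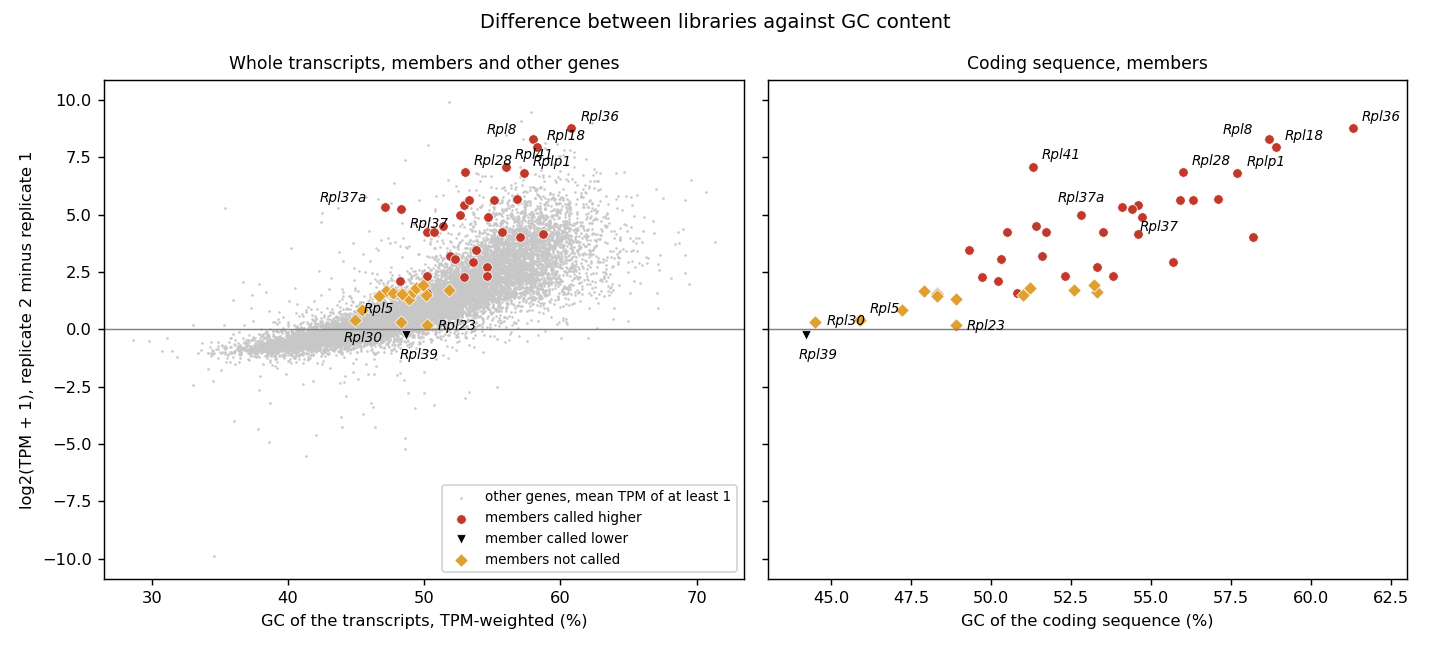
Difference between replicate 2 and replicate 1 in log2(TPM + 1) against GC content, for whole transcripts (left, members over all other genes averaging 1 TPM or more, in grey) and for coding sequences (right, members). Rpl36, Rpl8 and Rpl18 are at the top right, Rpl39, Rpl30, Rpl23 and Rpl5 near 0, and Rpl37 and Rpl37a lie above the grey cloud on the left and with the other members on the right.

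The transcripts that carried each gene also differed between the libraries. In 24 members a larger share of TPM fell on transcripts not annotated as protein coding (retained introns, processed transcripts and targets of nonsense-mediated decay) in replicate 1, and in 6 a larger share did in replicate 2. Such transcripts held over 50% of the gene in 1 member in replicate 2 and in 7 members in replicate 1. Rpl24 had 3.41% of its TPM on them in replicate 2 and 100% in replicate 1, where the coding transcript was listed at 0. A 452-base retained-intron transcript held 74.35% of Rpl24 in replicate 1 and 0.12% in replicate 2. Rpl41 had 1.11% in replicate 2 and 66.9% in replicate 1, where the whole gene had only 47 counts. Rpl11 had 0.894% in replicate 2 and 65.4% in replicate 1, and Rplp2 had 1.98% in replicate 2 and 54.9% in replicate 1. The whole Rplp2 gene had only 46 counts in replicate 1. Rpl35, at 43.4% in replicate 2 and 96.5% in replicate 1 (81.5 counts for the whole gene), was high in both. Rpl23 had 23.4% in replicate 2 and 92.0% in replicate 1. For Rpl23, then, the near-equal gene levels covered a coding transcript at 273 TPM in replicate 2 and 24.8 TPM in replicate 1. Rpl30 went the other way, with 26.2% in replicate 2 and 1.61% in replicate 1. Rpl12 was divided even in replicate 2, with 51.6% there and 98.9% in replicate 1.

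Alternative coding transcripts showed the same kind of difference. The 1922-base transcript of Rpl15, with 43.2% GC, held 24.82% of the gene in replicate 2 and 100% in replicate 1. It had 97.2 TPM in replicate 2 and 126 TPM in replicate 1. An 802-base transcript of Rpl15 with 53.6% GC held 59.1% in replicate 2, at 231 TPM, and was listed at 0 in replicate 1. In Rpl5 the 2045-base transcript, at 42.7% GC, held 39.59% in replicate 2 and 67.52% in replicate 1, and an 834-base transcript at 50.7% GC held 36.02% in replicate 2 and 3.04% in replicate 1. Over each gene's transcripts weighted by TPM, GC was higher in replicate 2 in 20 members, lower in 7 and equal after rounding to 0.1% in 18. Rpl38 was among those lower: its 371-base transcript held 78.24% in replicate 2 and 3.2% in replicate 1, and its 345-base transcript 1.8% in replicate 2 and 96.8% in replicate 1. Shares of overlapping transcripts are estimates by the authors' quantification, and how well it separated them was not tested.

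**Figure D3:**
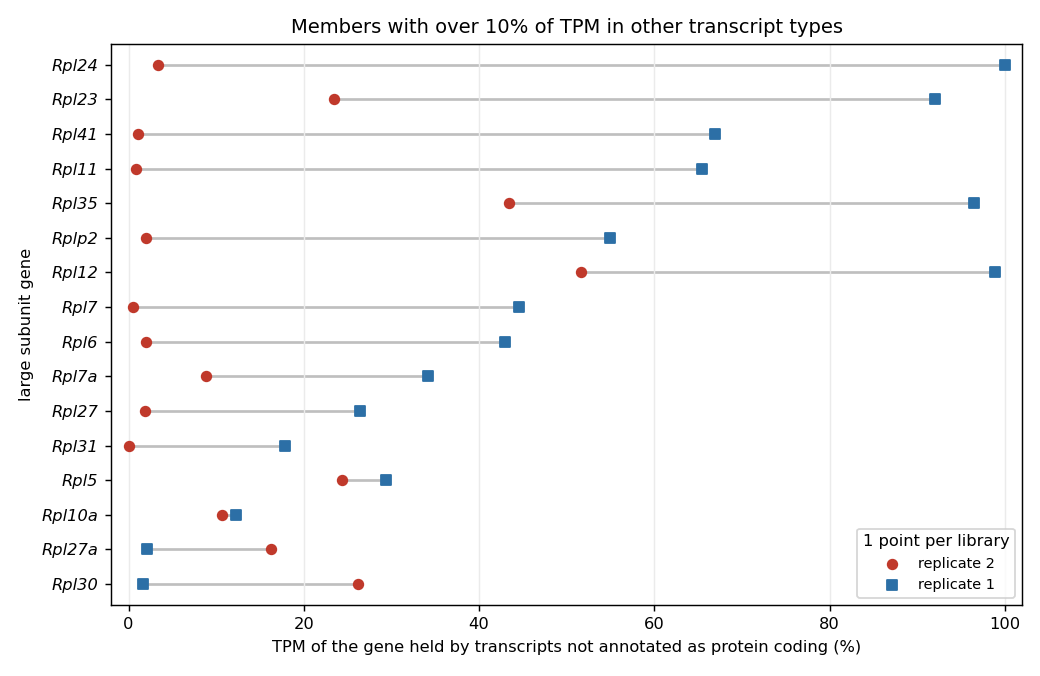
Percent of each gene's TPM held by transcripts not annotated as protein coding, in replicate 2 (circles) and replicate 1 (squares), for the 16 members over 10% in either library. Replicate 1 is to the right in all but Rpl27a and Rpl30, and Rpl24 spans from 3.41% in replicate 2 to 100% in replicate 1.

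Ribosomal protein genes have many processed pseudogenes, and reads of a gene and of a near-identical copy can be divided between them. Annotated pseudogenes whose transcripts matched a member at 90% identity or more over at least 50% of their length numbered 530, and each of the 45 members had at least 1. They held 8451 counts in replicate 2 and 4301 in replicate 1, which is 4.80% of the counts of members and copies together in replicate 2 and 8.93% in replicate 1. Gm15500, a copy of Rpl5, alone held 3132 counts in replicate 2 and 3222 in replicate 1, about as many as Rpl5 itself. Rpl31-ps8 had 546 counts in replicate 2 and was at 0 in replicate 1. Of 48 copies with enough counts to test, 28 were called higher, 7 lower and 13 not called. Among all genes tested, 34.5% were called higher and 24.0% lower. With the copies' counts added, the median log2 count ratio of the members with TMM was 2.27, beside 2.44 without them. The levels of Rpl5, Rpl27 and Rpl27a, whose copies held the most counts, are uncertain. So are the replicate 1 levels of Rpl29 and Rpl38, where copies held 36.1% and 31.3% of the counts of gene and copies together. In replicate 2 they held 2.30% and 0.317%. Adding them moved the log2 count ratio from 4.84 to 4.23 for Rpl29 and from 2.65 to 2.12 for Rpl38.

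Other features of the loci limit single values. A gene on the opposite strand overlaps 11 members (such as Syngr1 with Rpl3 and Nkiras1 with Rpl15), and no source used here says whether the counting used strand. A gene on the same strand overlaps 4, among them Gm28037, which overlaps Rpl24 and had 0 counts in replicate 2 and 160 in replicate 1. The introns of 19 members hold 38 annotated snoRNAs, and these had 6 counts in replicate 2 and 1 in replicate 1 in all.

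The start regions of most of the genes with a window hold a pyrimidine run such as TOP mRNAs have. RefSeq promoter windows (GRCm38.p6) were found for 34 of the 45. An unbroken run of at least 8 bases of C or T on the gene's strand, within 50 bases either side of the annotated start, was in 31 of the 34 (91.2%), beside 39.3% of 27025 genes. The median longest run was 11.5 bases in the members and 7 over all genes. The 30 bases around the run are shown for Rpl7a and Rpl27a, among the longest runs, and for Rpl18, among the largest differences, with the run in capitals.
Rpl7a: acaaTTCCCTCTTCTTTCTTTCTCCagcag
Rpl27a: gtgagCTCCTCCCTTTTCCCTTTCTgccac
Rpl18: tcgcaggccgCTCTTTCCCCgcccactccg
These are on the plus strand at chr2:26910789-26910818 for Rpl7a, chr7:109519186-109519215 for Rpl27a and chr7:45718062-45718091 for Rpl18. Rpl7a was called higher in replicate 2 and Rpl27a was not called, although both have runs of at least 20 bases. Position was not the same in all members. Counted from 1 at the annotated start, the longest run began at 2 in Rpl18, at 37 in Rpl39 and at 41 in Rpl41, so in Rpl39 and Rpl41 it does not begin the annotated mRNA. In Rpl7a it began at -14 and in Rpl27a at -4, so part of each of these runs lies upstream of the start used for the windows. In GENCODE M21 the genes begin before the printed stretches, at 26910764 for Rpl7a and 109519147 for Rpl27a, so the annotated starts differ. Rpl23, Rpl24 and Rplp0 had no run of 8 in this window.

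Small subunit genes, the other component of the ribosome, stood close to the large subunit genes. Of 32, 21 were called higher, 0 lower and 11 not called, beside 34.5% of all genes tested called higher and 24.0% lower. Their median log2(TPM + 1) difference was 3.24. Rps24 had 1658 TPM in replicate 2 and 1456 TPM in replicate 1, Rps29 had 1804 TPM in replicate 2 and 36.5 TPM in replicate 1, and Rps15 had 1489 TPM in replicate 2 and 1.10 TPM in replicate 1. Their share of TPM was 2.35% in replicate 2 against 0.505% in replicate 1. Both were below the shares of the large subunit genes, but those are sums over 45 genes against 32. The median small subunit gene had 622 TPM in replicate 2 and 83.9 TPM in replicate 1. The median large subunit gene had 527 TPM in replicate 2 and 89.0 TPM in replicate 1.

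Among paralogs of the 45 genes, Rpl22l1 had 347 TPM in replicate 2 and 522 TPM in replicate 1 and was called lower, though not with library totals. It stood above Rpl22 in both libraries, and at 39.5% its GC was below that of all 45. Rpl36al had 269.7 TPM in replicate 2 and 40.9 TPM in replicate 1 and was called higher, and Rpl7l1 was not called. Rpl3l, a striated muscle paralog, and the testis paralogs Rpl10l and Rpl39l were each under 1 TPM in both libraries.

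Among 24 assembly and export factors of the large subunit, 7 were called higher and 6 lower, near the shares of all genes (34.5% and 24.0%), with a median of 0.39. With library totals, 9 were called higher and 3 lower, beside 43.6% and 7.9% of all genes. Npm1, a nucleolar chaperone, had 214 TPM in replicate 2 and 339.7 TPM in replicate 1, and Ncl (nucleolin) had 96.8 TPM in replicate 2 and 107 TPM in replicate 1. Both were called lower, and for Ncl the call needed TMM sizes. Nmd3, the export adaptor of the large subunit, was also called lower, with 36.5 TPM in replicate 2 and 56.6 TPM in replicate 1. Gnl3l, a nucleolar GTPase, had 82.2 TPM in replicate 2 and 77.1 TPM in replicate 1 and was not called. Of 17 other TOP mRNAs, 5 were called higher and 3 lower (median 0.97), again near the shares of all genes. With library totals, 8 were called higher and 2 lower, beside 43.6% and 7.9% of all genes. Tpt1, the TOP mRNA of a growth-related protein, was among those lower, with 1326 TPM in replicate 2 and 2050.1 TPM in replicate 1, though with library totals it was not called. Eef1a1, elongation factor 1A, had 2881 TPM in replicate 2 and 847 TPM in replicate 1 and was not called. Naca, a chaperone of chains leaving the tunnel, was not called either, with 379 TPM in replicate 2 and 260.2 TPM in replicate 1. Eif3e, an initiation factor subunit, was called lower, with 106 TPM in replicate 2 and 190.5 TPM in replicate 1.

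Of 15 genes for RNA polymerase I and its factors, which transcribe the large rRNA precursor, 10 were called higher and 3 lower (median 1.92). Among all genes tested, 34.5% were called higher and 24.0% lower. Polr1d had 81.2 TPM in replicate 2 and 15.9 TPM in replicate 1, and Polr2e, a subunit shared by the nuclear polymerases, had 92.9 TPM in replicate 2 and 0.26 TPM in replicate 1. The lower ones were Polr2k (83.2 TPM in replicate 2, 134 TPM in replicate 1), Taf1b and Twistnb, with GC contents of 38.0%, 45.3% and 40.3%, and Taf1b was not called with library totals. The same background shares, 34.5% higher and 24.0% lower, apply to the large subunit of the mitochondrial ribosome. Of 48 of its genes, 20 were called higher and 4 lower (median 1.67). Its most abundant genes were not called: Mrpl30 had 133 TPM in replicate 2 and 122 TPM in replicate 1, Mrpl42 had 135 TPM in replicate 2 and 59.9 TPM in replicate 1, and Mrpl20 had 149 TPM in replicate 2 and 44.6 TPM in replicate 1. The lower ones, Mrpl32, Mrpl50, Mrpl1 and Mrpl35, had GC contents between 40.7% and 43.6%, and with library totals none of these 4 was called.

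**Figure D4:**
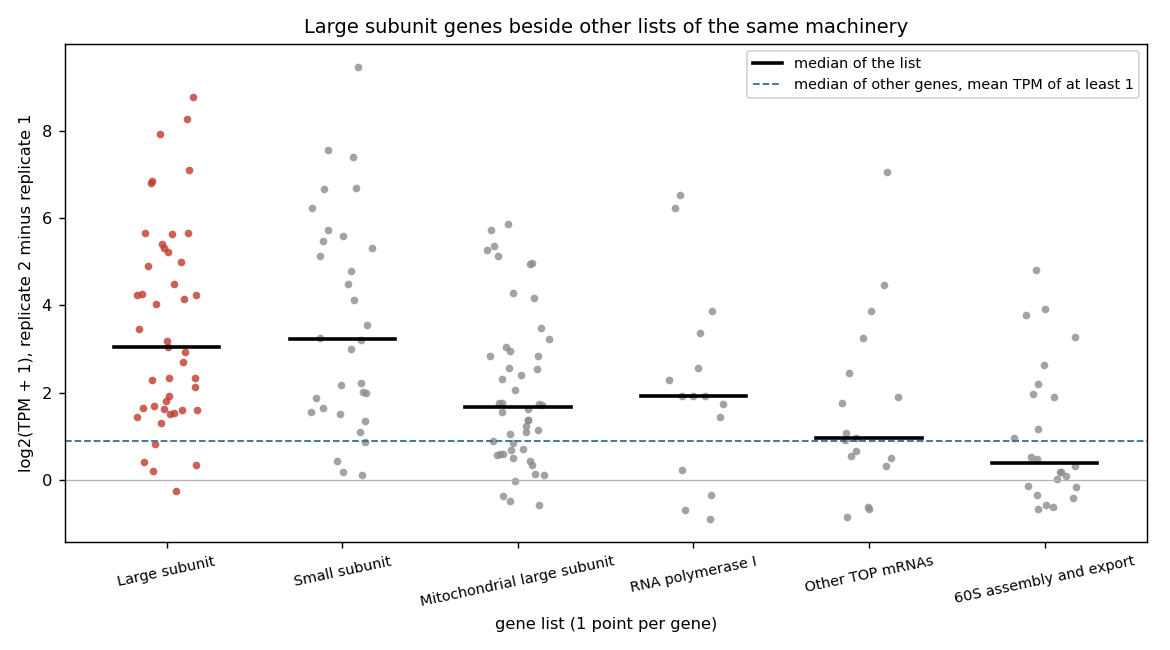
Difference between replicate 2 and replicate 1 in log2(TPM + 1) for the 45 large subunit genes (left) and 5 other lists, 1 point per gene, with each list's median (bar) and the median of other genes (dashed line, 0.88). Large and small subunit genes have medians of 3.05 and 3.24, and the assembly factors a median of 0.39.

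The genes whose levels lay nearest to the members' medians in both libraries, outside all lists, were Sst, Ndufb4c, Prkar1b, Atp5o and Arf3. The measure was the distance in log2(TPM + 1) over the 2 libraries, from 0.169 for Sst to 0.310 for Arf3. Sst, the somatostatin neuropeptide gene, had 568 TPM in replicate 2 and 97.6 TPM in replicate 1, at a GC of 56.0%. All 5 were called higher in replicate 2, which their choice by levels in both libraries largely settled in advance.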

How the data were processed

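Brain poly(A) RNA of 1 mouse was measured in 2 libraries with fragments of 350 to 450 bases, per the labels. Expected counts, estimates that need not be whole, were deposited by the authors per gene and transcript. TPM was likewise deposited by the authors, with the percent of a gene held by each transcript. The build is mm10 with GENCODE M4 per the file headers, and no source used here names the quantifier or aligner. The deposited interval bounds of TPM stand around the posterior mean, of unstated level, and entered no test.

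Names, positions and sequences came from GENCODE M21 on the same build, in which 97.95% of transcripts were found and 88.21% had the same length. Of 222 member transcripts 18 were not found, most of them in Rpl13a, and entered no transcript type. The type of a transcript is that of M21. A gene's GC is the TPM-weighted mean over its transcripts.

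Expected counts were rounded. Sizes were scaled by TMM (edgeR 4.0.16, R 4.3.3) on the genes tested, those whose summed counts reached 10. Folds had 0.5 added to each count, and log2(TPM + 1) understates differences of low genes. Quasi-likelihood (edgeR) and DESeq2 tests could not be fitted with 1 library a side; DESeq2 1.42.0 served for size factors. The p-values, 95% intervals and the floor of 3 counts (1.68e-05% of replicate 2 and 1.64e-05% of replicate 1) cover counting error only. The test was checked on simulated counts. Copies were found with blastn 2.17.0. Further tools were scipy 1.17.1, pandas 2.3.3, Python 3.11.15 and matplotlib 3.10.9.

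The members and lists were chosen with earlier results of these data known. Named in full were the 6 most abundant members, the 5 at either end of the differences, every member not called higher or under 10 counts, the extremes of each role, and the leading genes of other lists. The length split within GC bands was chosen after seeing the data. Some genes are not reported here.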

Additional observations from a re-analysis of the deposited data

How the results depend on the processing

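With TMM 30 members were called higher, beside 34.5% of all genes tested, and the share of all genes follows each setting in brackets. The 30 became 38 with library totals (43.6%), 35 with totals without mitochondrial genes (40.2%) and 25 at a 4-fold minimum (24.9%). The number stayed 30 with DESeq2 size factors (35.4%), posterior mean counts (34.4%) and copies added to the member (34.5%). It also stayed 30 with no filter on low counts (12.9%) and with a Bonferroni adjustment (29.6%). The 1 called lower (Rpl39) stood beside 24.0% of all genes with TMM. It became 0 with library totals (7.9%), with totals without mitochondrial genes (13.1%) and at a 4-fold minimum (2.49%), by the construction of these alternatives. The median log2 difference of 3.05 ranged from 2.40 (CPM with TMM) to 3.07 (pseudocount 0.1). With posterior mean TPM, 5 single differences (Rpl8, Rpl18, Rpl27, Rpl28 and Rplp0) lay outside their counting interval, that of Rpl18 at 6.29 against 7.93. These intervals are of the TPM ratio with nothing added. For Rpl8 and Rpl18 the log2(TPM + 1) difference with TPM already lay below the interval. On CPM with TMM all 45 single differences lay outside their counting interval, and the sign was negative for 5 members (Rpl5, Rpl15, Rpl23, Rpl30 and Rpl39). The TPM share, 1.73% over both libraries, was 2.93% without replicate 1 and 0.519% without replicate 2, and the spread of log2(TPM + 1) was 0.754 without replicate 1 and 2.31 without replicate 2. With copies at 95% identity the median family ratio was 2.27, as at 90%. Leaving out a library leaves no comparison. No paired analysis was possible because there is 1 group only. Depth limits replicate 1 values of Rpl36, Rpl18 and Rpl8, which rest on under 10 counts.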
